A study of Mus musculus with 18 samples.

Results

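The 33 genes described here encode complement and coagulation factors that the liver secretes into blood, together with the inhibitors and the fibrin-dissolving enzyme system that act on them. They were taken by name from a set list, through the gene name that the scanner files give each probe, and all 33 were found, among 17678 genes measured. Together they had 45 probes, and 9 of them had 2 or more. Liver RNA came from 18 male CD-1 mice, an outbred stock, and each mouse was hybridised to its own 1-colour Cy3 Agilent array. The mice ate a powdered diet with bisphenol A, a plasticiser with weak estrogen-like activity, for 28 days and were 9 weeks old at the end. The groups of 6 mice were the control diet (0 µg of bisphenol A per kg body weight per day), the low dose (50 µg per kg per day, which the labels call TDI, for tolerable daily intake) and the high dose (5000 µg per kg per day, which they call NOAEL, for no observed adverse effect level). The doses are averages set from an assumed food intake, and the RNA came from fragments of the large lobe, so all cell types of the liver contributed to it. For such bulk RNA, fewer cells of a type and less RNA per cell cannot be told apart.

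Clotting runs as a cascade of proteases: factor VII with tissue factor, or the contact factors XII and XI, lead to active factor X, which with its cofactor factor V turns prothrombin into thrombin, and thrombin turns fibrinogen into fibrin. Complement is a second cascade, started by antibody, by mannose-binding lectins or by spontaneous turnover of C3, which converges on C3 and C5 and ends in a pore built from C5b, C6, C7, C8 and C9. Hepatocytes make most of these plasma proteins, and several of them, fibrinogen and C3 among them, rise in the acute phase response to inflammation.

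Levels are given on a log2 scale relative to the 75th percentile of intensity on the same array, so that 1 unit is a doubling, and they are compared only between mice for the same probe. Of the 33 genes, 19 had a brightest probe that was saturated on no array. The other 14 reached the ceiling of the scanner on at least 1 array. C3 (the central component of complement), Fgb and Fgg (the beta and gamma chains of fibrinogen) were saturated on all 18 arrays. Serpinc1 (antithrombin, which inhibits thrombin and factor Xa) was saturated on 17 arrays, and F2 (prothrombin) on 16. The remaining 9 were saturated on fewer: Cfi and Mbl2 on 6 arrays, Cfb on 5, F10 and Hc on 3, Fga and Kng1 on 2, and C4b and Proc on 1. A spot at the ceiling has a nearly fixed raw signal, so its scaled level falls as the array gets brighter. The 75th percentile averaged 230 ± 43.1 in control arrays, 295 ± 44.0 in low-dose arrays and 292 ± 34.1 in high-dose arrays (SD, n = 6 each), which put it 0.37 higher in low-dose and 0.36 higher in high-dose arrays than in control arrays on the log2 scale. The 29 genes of the whole array that were saturated everywhere had log2 differences of -0.43 to -0.25 between low dose and control, with a median of -0.37. No fold change is therefore given for C3, Fgb, Fgg, Serpinc1 and F2.

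**Figure D1:**
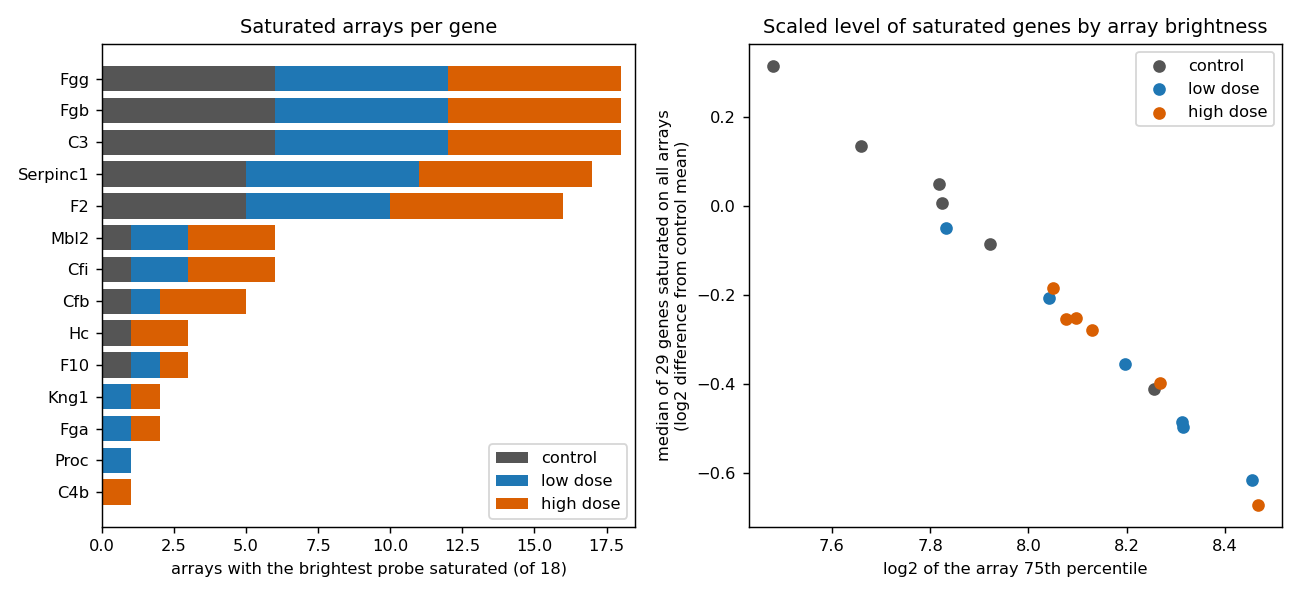
Left, the number of arrays (of 18) on which the brightest probe of each of 14 genes was saturated, split by group; Fgg, Fgb and C3 were saturated on all 18. Right, each point is 1 array, with the log2 of its 75th percentile on the horizontal axis and, on the vertical axis, the median scaled level of the 29 genes saturated on all arrays, as a log2 difference from the control mean; the brighter arrays sit lower, and 5 of 6 control arrays are at the dim end.

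The tissue matched its label: Alb (albumin) was saturated on all 18 arrays, and Hnf4a (a transcription factor of hepatocytes) averaged 3.22 in control, 3.16 in low-dose and 3.12 in high-dose livers. By the median of a list of 24 measured acute phase genes, a pair of mice stood apart. The median of that list, as a difference from the control mean, was 0.99 in low-dose mouse 4 and 1.11 in high-dose mouse 2, against -0.39 to 0.49 in the other 16 mice. Single genes of the list were high in other mice too. Saa3 (a serum amyloid A) was at 7.77 in low-dose mouse 2, 7.53 in low-dose mouse 6 and 7.32 in high-dose mouse 3. It was at 8.035 in low-dose mouse 4 and 7.71 in high-dose mouse 2, and at 3.37 to 5.48 in control mice. Saa1 and Saa2 were also high in a control mouse, at 7.82 and 7.85 in control mouse 6. Their highest values in dosed mice were 8.01 and 7.89. Saa3 was saturated on 3 arrays, and Saa1 and Saa2 on 6 each. Lcn2 was at 3.68 in low-dose mouse 2 and 2.19 in low-dose mouse 4. High-dose mouse 2 also had the highest neutrophil list median, at 5.25 over 4 measured genes, against -0.94 to 1.72 in the other mice. Its S100a8 (a calprotectin subunit of neutrophils) was at 2.63, against -4.80 to -0.48 in the other mice. Its Lcn2 (lipocalin-2, an acute phase protein) was at 6.40, against -5.25 to 3.68. The group medians and the values of F5, Plg, C2, Fga and C4b are therefore also given without this pair of mice. Within groups, arrays correlated at 0.958 to 0.984.

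In low-dose livers 1 of the 33 genes passed the test, F5 (factor V), and it was lower. The limma test with Benjamini-Hochberg adjustment over all genes called 43 of 17677 genes, or 0.243% of those tested. Most of the genes leaned the same way without passing: 27 of 33 had a log2 fold change below 0, with a median of -0.15. Among all genes tested 54.3% lay below 0, with a median of -0.02. Leaving out the 5 genes at or near full saturation, 22 of 28 lay below 0 with a median of -0.12, and of the 19 never saturated 17 did, with a median of -0.15. The 28 still include genes saturated on some arrays. Of all 126 genes of the array saturated on some arrays, 98 lay below 0, with a median of -0.19. For comparison, 2045 of 3488 other unsaturated genes as bright as the dimmest of the 33, or brighter, lay below 0, with a median of -0.03. The size of the lean moved with the scaling: the median of the 33 was -0.038 with quantile normalisation, -0.034 in the authors' deposited value table and -0.067 with array brightness as a covariate. Over the 19 never saturated the same settings gave -0.096, -0.10 and -0.10. Without low-dose mouse 4 and high-dose mouse 2 the median of the 19 genes was -0.20. Low-dose mouse 4 had the highest median of these genes in its group (0.19 above the control mean), so leaving it out had to lower that value. F5 was past the threshold without both mice (adjusted p = 0.0327 in limma). It was not past it without low-dose mouse 4 alone (adjusted p = 0.0508 in limma). With normexp background correction, however, the median of the 19 was 0.21, so the lean of the group turned round with the way background was removed, while the median of all genes moved to -0.10.

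F5 encodes the cofactor that lets factor Xa cleave prothrombin at speed, and its absence impairs clotting. Its probe lies at chr1:166046272-166048460 of mouse build mm8, a span longer than the probe itself, so it crosses a splice junction. In the low-dose livers F5 had a lowest, median and highest level of 3.26, 3.33 and 3.45, against 3.63, 3.71 and 3.86 in control livers. No low-dose mouse reached the lowest control mouse. The mean was 3.35 ± 0.09 in low-dose and 3.74 ± 0.08 in control livers (SD, n = 6 each). The log2 fold change was -0.39 ± 0.08 (SE), with an adjusted p of 0.0436 in limma, so that F5 fell by 23.8% (95% interval -32.0% to -14.6%). On the 4 slides that carried both groups, the difference between low-dose and control arrays lay between -0.43 and -0.26. It also lay below 0 in each of 19 other settings (-0.44 to -0.14) and passed the threshold in 11 of them. Many of these settings could not change the fold change of F5, which has 1 probe, saturated on no array. The numbers of settings are therefore not numbers of separate checks. The call was close to the threshold: leaving out 1 mouse at a time gave adjusted p-values of 0.0293 to 0.125, past the threshold in 3 of 18 fits, and with array brightness as a covariate the log2 fold change was -0.36 with an adjusted p of 0.482.

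**Figure D2:**
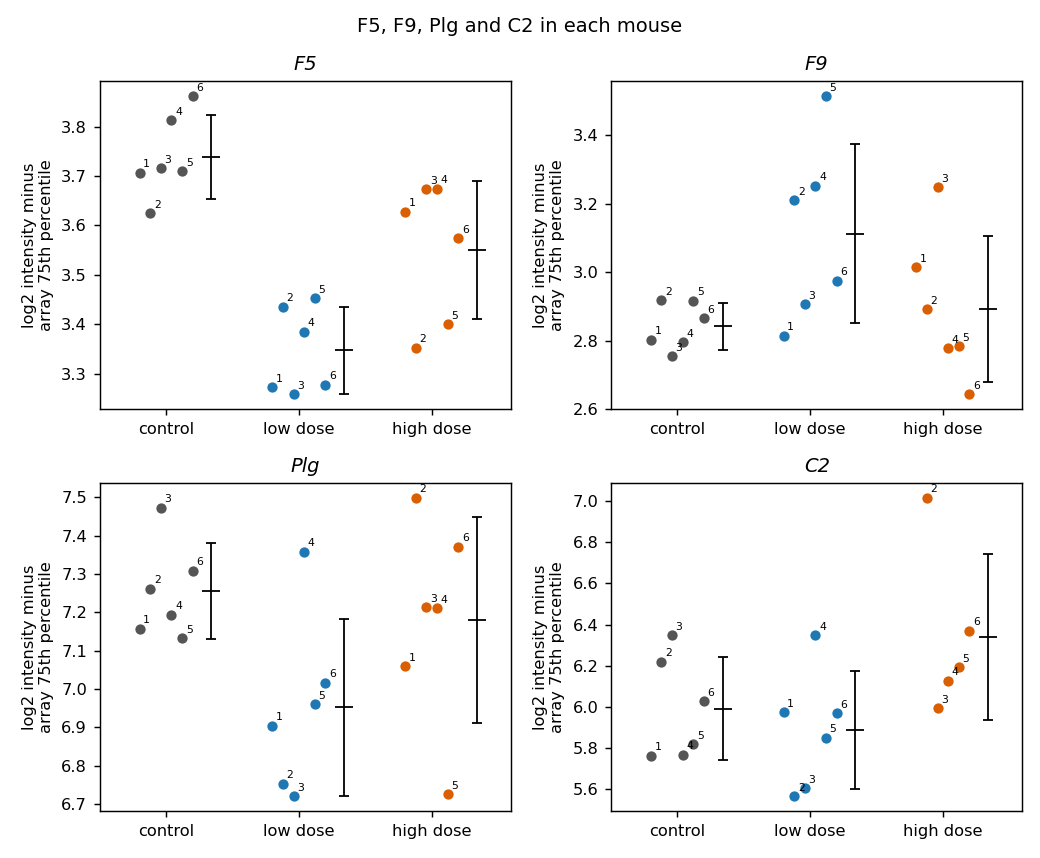
Level of F5, F9, Plg and C2 in each mouse (log2 scale, relative to each array's 75th percentile) by group; numbers are mouse numbers, and the bars to the right of the points are means ± SD (n = 6 per group, 5 for C2 at the high dose). All 6 low-dose mice lie below all control mice for F5, while the groups overlap for F9, Plg and C2.

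The sequence around the start of F5 is shown because it is the member whose level differed. It covers 300 bases around the annotated start, most of them upstream, in RefSeq on build GRCm38.p6, at chr1:164151585-164151884 on the plus strand, which is another build than that of the probes.
F5: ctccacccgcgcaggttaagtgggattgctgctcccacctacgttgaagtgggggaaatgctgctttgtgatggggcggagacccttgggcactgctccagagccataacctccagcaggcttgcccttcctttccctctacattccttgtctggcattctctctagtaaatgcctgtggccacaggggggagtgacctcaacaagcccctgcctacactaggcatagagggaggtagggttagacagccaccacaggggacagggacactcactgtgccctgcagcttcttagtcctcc
None of 6 motifs searched on both strands is in this window: the estrogen response element (GGTCA and TGACC with any 3 bases between them), the STAT3-type acute phase element CTGGGAA, the C/EBP motif TTNNGNAAT, the HNF1 motif (GTTAAT and ATTAAC with any 1 base between them), the HNF4 motif CAAAGTCCA and the TATA box TATAAA. Of 32851 RefSeq promoter windows of the same length, 0.07% held the estrogen response element, 11.1% the STAT3-type element, 11.5% the C/EBP motif, 0.00913% the HNF1 motif, 0.475% the HNF4 motif and 13.6% the TATA box. A promoter was found in that table for 25 of the 33 genes, and 0 of the 25 held the estrogen response element. No motif match stands for a bound site.

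At an unadjusted p under 0.05, 9 of the 33 genes differed between low dose and control, 8 lower and 1 higher, where 6.57% of all genes were lower and 5.02% higher. Of these 9, 5 are the saturated genes C3, Fgb, Fgg, Serpinc1 and F2. The others are F5, F9, Plg and Proc, and of these F9, Plg and Proc did not pass after adjustment. For F5 and C8a, 2 of 33 genes, every low-dose value lay below every control value, as it did for 1.05% of all genes. C8a had only 2 low-dose values in the fit, and with its dropped spots kept the groups overlapped.

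Among the genes that start clotting, F9 (factor IX, the protease missing in human haemophilia B) was at 2.81, 3.09 and 3.52 (lowest, median and highest) in low-dose livers, against 2.75, 2.83 and 2.92 in control livers. Low-dose mice 2, 4, 5 and 6 stood above every control mouse, and mice 1 and 3 lay among the controls. The log2 fold change was 0.27 ± 0.12 with an adjusted p of 0.385 in limma, and the second probe of F9 gave 0.15 ± 0.15. F7 (factor VII), F11 (factor XI), F12 (factor XII) and Kng1 (kininogen, the precursor of bradykinin) had log2 fold changes of -0.15 to 0.01 and adjusted p-values of 0.692 to 0.987. The brightest probe of Kng1 was saturated on 0 control, 1 low-dose and 1 high-dose arrays. It averaged 7.69 ± 0.14 in low-dose and 7.80 ± 0.11 in control livers, and its unsaturated second probe gave -0.24 ± 0.12 with an adjusted p of 0.436.

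In the common pathway F10 (factor X) differed by 0.03 ± 0.09, with 1 saturated array in each group. F2 was saturated on 5 control, 5 low-dose and 6 high-dose arrays. Its scaled level was 7.59, 7.91 and 8.40 in low-dose livers, against 7.78, 8.35 and 8.74 in control livers. These ranges overlap and follow the brightness of the arrays, so F2 is reported as saturated.

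The fibrinogen chains are neighbours on chromosome 3 (83100830 to 83128398 on mm8 for their probes), yet only Fga, the alpha chain, could be read. Fga was at 7.31, 7.51 and 8.41 in low-dose livers, against 7.19, 7.54 and 7.85 in control livers, with a log2 fold change of 0.10 ± 0.18. Its highest value was in low-dose mouse 4, whose Fga spot was saturated. Without that mouse and high-dose mouse 2 the log2 fold change was -0.057 ± 0.13. High-dose mouse 2 enters neither mean of this difference, so its sign rested on low-dose mouse 4. Leaving out the highest value of the group had to lower it. The scaled levels of Fgb were 7.48, 7.75 and 8.02 in low-dose and 7.73, 8.17 and 8.37 in control livers, and those of Fgg 7.65, 7.77 and 8.22 in low-dose and 7.87, 8.26 and 8.48 in control livers. These are ceiling values, and both genes are among the 29 saturated everywhere. F13b (the carrier subunit of factor XIII, which cross-links fibrin) was at 4.02, 4.11 and 4.38 in low-dose livers, against 4.21, 4.33 and 4.37 in control livers. Its log2 fold change was -0.16 ± 0.08, with an adjusted p of 0.498.

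Plasminogen is the precursor of plasmin, which dissolves fibrin. Plg was at 6.72, 6.93 and 7.36 in low-dose livers, against 7.13, 7.23 and 7.47 in control livers. Of the low-dose mice 5 lay below every control mouse, and mouse 4, the one with the highest acute phase median of its group, lay among the controls. The log2 fold change was -0.30 ± 0.13 with an adjusted p of 0.36, and the second probe of Plg gave -0.25 ± 0.15. Without low-dose mouse 4 and high-dose mouse 2 it was -0.38 ± 0.11 with an adjusted p of 0.136, so Plg did not pass either way. Serpinf2 (alpha-2-antiplasmin, the inhibitor of plasmin) differed by -0.15 ± 0.13.

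Of the anticoagulants, Proc (protein C, which inactivates factors Va and VIIIa) was at 7.39, 7.46 and 7.71 in low-dose livers, against 7.48, 7.71 and 7.80 in control livers. The low-dose values were lower in the middle of the range but overlapped the controls, and 1 low-dose array was saturated. The log2 fold change was -0.19 ± 0.09 with an adjusted p of 0.413. It was -0.027 with quantile normalisation, -0.039 in the authors' deposited value table and -0.11 with array brightness as a covariate. Serpinc1 was saturated on 5 control, 6 low-dose and 6 high-dose arrays, with scaled levels of 7.46, 7.60 and 7.99 in low-dose livers, against 7.63, 8.07 and 8.16 in control livers. Its second probe, saturated on no array, gave -0.11 ± 0.17, closer to 0 than the ceiling values of the first. Pros1 (protein S, the cofactor of protein C) and Serpind1 (heparin cofactor II, a thrombin inhibitor) both differed by -0.06, with SEs of 0.13 and 0.10.

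On the complement side, the genes that start the cascade showed no call at the low dose. Mbl1 and Mbl2 (mannose-binding lectins A and C), Masp1 and Masp2 (their serine proteases), C4b (complement C4) and C2 (the protease part of the classical C3 convertase) had log2 fold changes of -0.22 to 0.07. The value above 0 was that of C4b, and without the pair of mice that stood apart it was -0.033. Their smallest adjusted p was 0.609. Cfb (factor B, the protease of the alternative pathway) and Cfi (factor I, which inactivates C3b and C4b) differed by -0.19 ± 0.10 and -0.15 ± 0.10, with saturated arrays in each group. C3 had scaled levels of 7.50, 7.72 and 7.97 in low-dose livers, against 7.73, 8.17 and 8.33 in control livers, all at the ceiling. A dimmer C3 probe, never saturated, gave 0.39 ± 0.31 (adjusted p = 0.661), opposite in sign to the ceiling values. It was at 0.892 to 2.229 in low-dose mice, highest in mouse 4, against 0.692 to 1.42 in control mice. Low-dose mice 2, 4 and 6 stood above every control mouse.

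Of the 6 genes of the terminal complex 5 lay below 0 at the low dose, and 0 passed in limma, with a smallest adjusted p of 0.571. C6 had the largest difference in size, -0.45 ± 0.31. It was at 3.04, 3.87 and 5.06 in low-dose livers, against 3.73, 4.59 and 4.73 in control livers. The low-dose range took in the whole control range, since mouse 4 was above and mouse 6 below all controls. C8a (alpha chain of C8) was read in only 2 low-dose mice, at 5.99 and 6.03, against 6.15, 6.39 and 6.57 (lowest, median and highest) in 6 control mice. The fit dropped the other 4 low-dose spots, which the scanner software marked as outliers. With those spots kept, at 5.93 to 6.76, the groups overlapped and the difference was -0.16 ± 0.17 in place of -0.35 ± 0.21. Its neighbour C8b (beta chain) differed by -0.24 ± 0.17, C8g (gamma chain) by -0.19 ± 0.13, Hc (complement C5) by 0.04 ± 0.23 and C9 (the subunit that forms the pore) by -0.01 ± 0.21. The value of Hc turned to -0.20 ± 0.15 without control mouse 1.

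**Figure D3:**
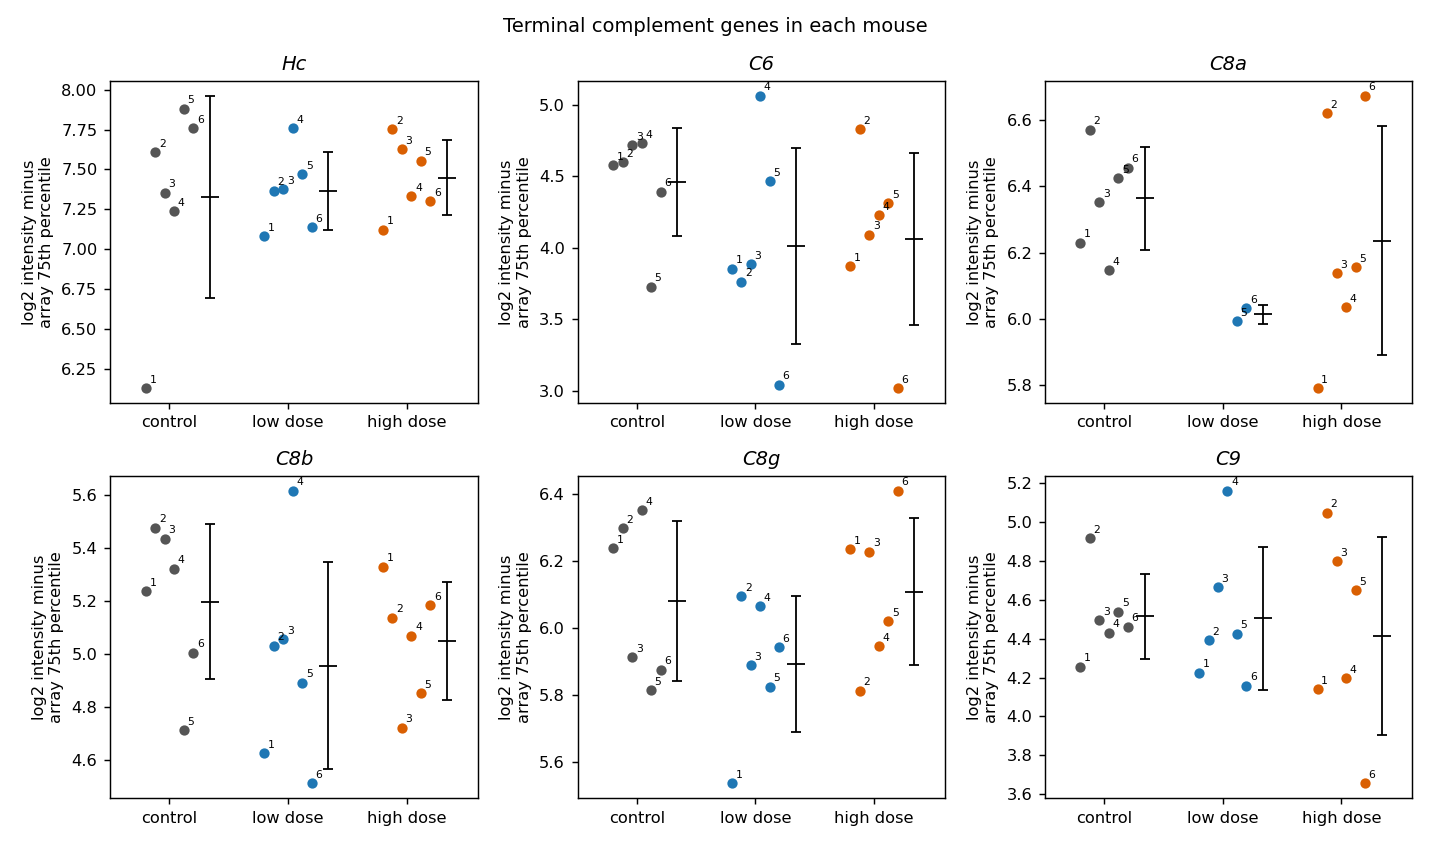
Level of the 6 terminal complement genes in each mouse (log2 scale, relative to each array's 75th percentile) by group, with mouse numbers and mean ± SD. Low-dose mouse 4 and high-dose mouse 2 are the highest of their groups for Hc, C6 and C9, while mouse 6 of each dosed group is the lowest for C6 and C9.

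In high-dose livers 0 of the 33 genes passed the limma test against the same control mice, and 0 of 17676 genes did in all (0%). The smallest adjusted p of the 33 was 0.671. The group did not lean one way: 20 of 33 lay below 0 with a median of -0.07, and of the 19 never saturated 10 did, with a median of -0.0046, against 51% of all genes and a median of -0.0048. Of the other unsaturated genes at least as bright as the dimmest of the 33, 2336 of 3487 lay below 0, with a median of -0.06. At an unadjusted p under 0.05, 6 of the 33 were lower and 0 higher, where 3.92% of all genes were lower. The 6 were F5 and the saturated C3, Fgb, Fgg, Serpinc1 and F2. Without the pair of mice that stood apart the median of the 19 genes was -0.08, and again 0 passed.

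F5 was at 3.35, 3.60 and 3.67 in high-dose livers, against 3.63, 3.71 and 3.86 in control livers. High-dose mice 2, 5 and 6 lay below every control mouse, and the other 3 high-dose mice lay between the lowest control mouse and the next. The log2 fold change was -0.19 ± 0.08 with an adjusted p of 0.687 in limma. The 2 dosed groups were compared with the same 6 control mice, so these differences are not independent of each other.

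In the fit, C2 had the largest difference upward at the high dose. It was at 5.99, 6.19 and 7.02 in the 5 high-dose livers with a value, against 5.76, 5.92 and 6.35 in control livers. The spot of high-dose mouse 1 was dropped as an outlier. If kept, it would be at 5.64, below every control value, and the difference would be smaller. The ranges overlapped, and the top value belonged to mouse 2, whose acute phase genes were high. The log2 fold change was 0.35 ± 0.19 with an adjusted p of 0.755, and the second C2 probe, read in all 6 mice, gave 0.32 ± 0.20. Without the pair of mice that stood apart the first probe gave 0.18 ± 0.14, with an adjusted p of 0.93 in limma. C6 was at 3.02, 4.16 and 4.83 in high-dose livers, against 3.73, 4.59 and 4.73 in control livers, a difference of -0.40 ± 0.31. F9, which was higher in some low-dose mice, differed by 0.05 ± 0.12 and Plg by -0.07 ± 0.13. The second probes gave 0.11 ± 0.17 for Serpinc1, 0.21 ± 0.32 for C3 and -0.08 ± 0.12 for Kng1. That C3 probe had no value in high-dose mouse 3. It was at 2.705 in high-dose mouse 2 and 0.621 to 1.253 in the other high-dose mice, against 0.692 to 1.42 in control mice.

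**Figure D4:**
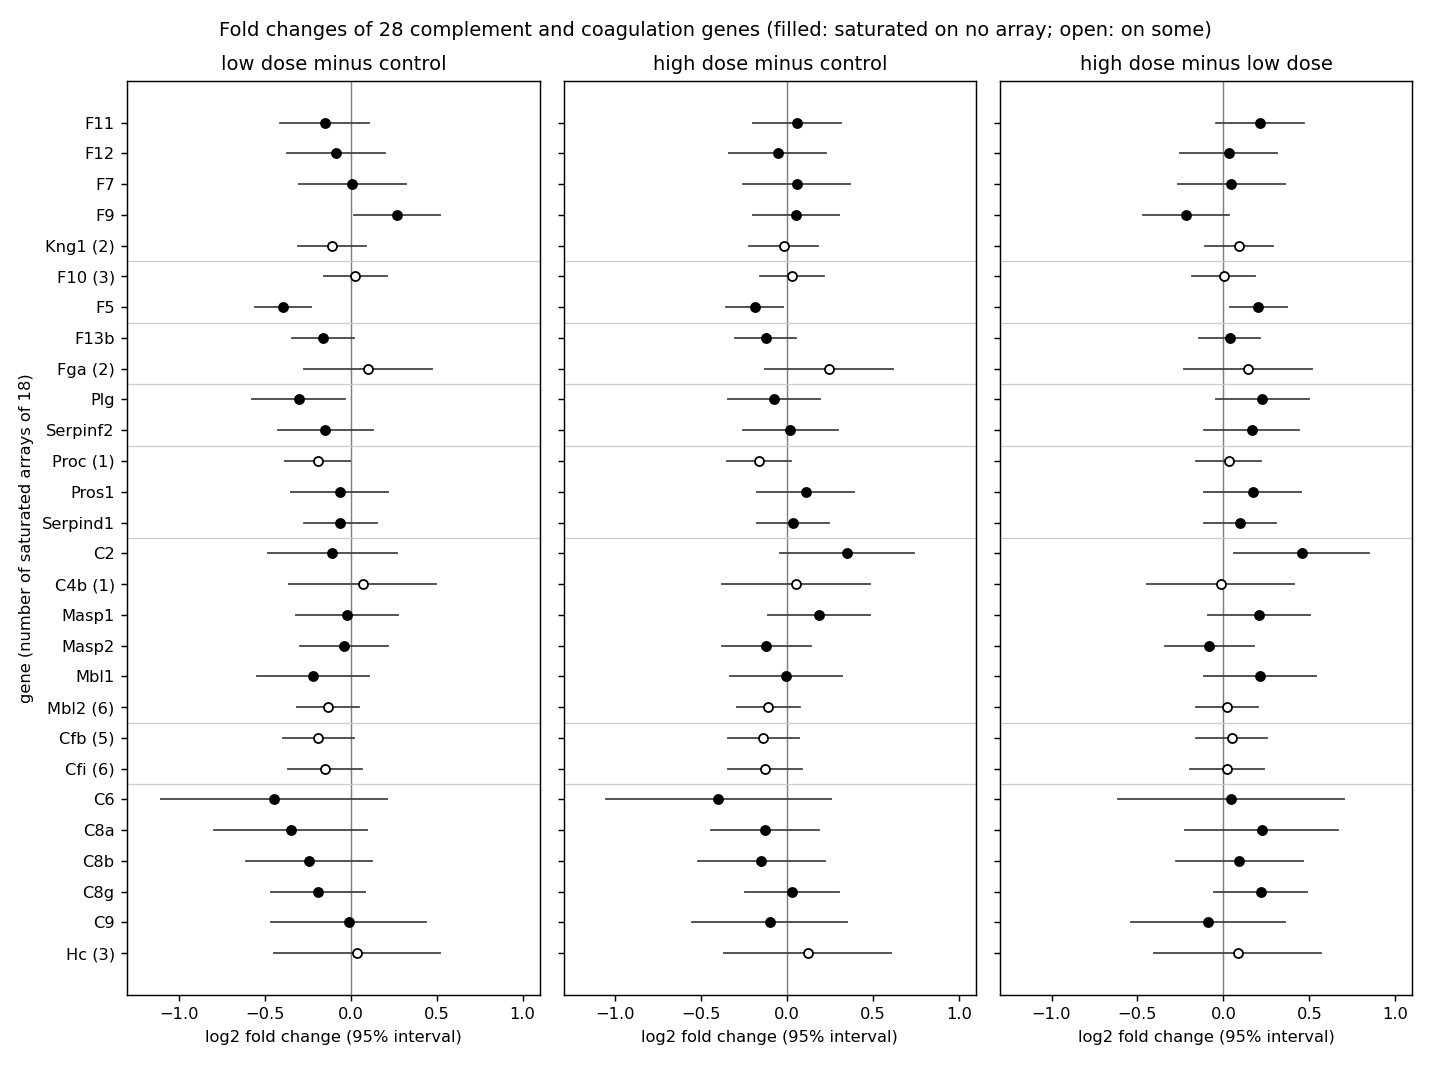
Log2 fold changes with 95% intervals of 28 genes in the 3 comparisons, ordered by role from contact and initiation factors (top) to the terminal complement complex (bottom), with grey lines between roles. Filled points were saturated on no array, open points on the number of arrays in brackets. The points of the left panel lie mostly below 0 (22 of 28) and those of the right panel mostly above 0 (24 of 28); the interval of F5 is the one farthest from 0 in the left panel.

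Set directly against the low dose, the high dose gave 0 calls among the 33 genes, where 5 of 17676 genes passed (0.0283%). The smallest adjusted p of the 33 was 0.51. Of the 33 genes 28 were higher in high-dose livers with a median of 0.05, and of the 19 never saturated 16 were, with a median of 0.17, while 54.5% of all genes were higher, with a median of 0.02. Of the other unsaturated genes at least as bright as the dimmest of the 33, 1931 of 3487 lay below 0, with a median of -0.02. Without the pair of mice that stood apart the median of the 19 was 0.15. With normexp background correction it was -0.081, so this lean too turned round. At an unadjusted p under 0.05, 2 genes were higher (F5 and C2) and 0 lower, where 3.67% of all genes were higher.

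F5 was at 3.35, 3.60 and 3.67 in high-dose livers, against 3.26, 3.33 and 3.45 in low-dose livers. High-dose mice 1, 3, 4 and 6 stood above every low-dose mouse, and mice 2 and 5 did not. The difference was 0.20 ± 0.08 with an adjusted p of 0.51, so the test did not separate the F5 levels of the 2 doses. C2 was at 5.99, 6.19 and 7.02 in high-dose livers, against 5.56, 5.91 and 6.35 in low-dose livers, a difference of 0.46 ± 0.19 with an adjusted p of 0.576. Without the pair of mice it was 0.38 ± 0.15 with an adjusted p of 0.405. Plg differed by 0.23 ± 0.13 and F9 by -0.22 ± 0.12. C8a differed by 0.22 ± 0.21, with only 2 low-dose values in the fit. Its 4 dropped low-dose spots were at 5.93 to 6.76, against 5.79 to 6.67 in high-dose livers.

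The genes differed widely in how much they varied between mice of a group. F5 had the smallest pooled SD of the 19 never saturated, 0.11, followed by F13b at 0.12. C6 had the largest, 0.57, followed by C9 at 0.38, C2 at 0.32 and C8b at 0.31. The median of the 19 was 0.22, against 0.29 for all genes saturated on no array. C6 spanned 2.05 log2 units over the 18 mice, from 3.02 in high-dose mouse 6 to 5.06 in low-dose mouse 4. C9, its partner in the pore and a gene of the same chromosome, spanned 1.51 units, from 3.66 in high-dose mouse 6 to 5.16 in low-dose mouse 4.

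The high mice of both dosed groups were shared by many of the genes. In each dosed group 18 of the 19 never-saturated genes had a value in all 6 mice. Of these, low-dose mouse 4 was the highest of its group for 11 and high-dose mouse 2 for 8. Over all 33, 11 genes were highest in both mice: F10, F11, Fga, Plg, C4b, Hc, C6, C9, Mbl1, Masp1 and C2. Of these, 7 were saturated on no array. F5 was not among them, with its highest values in low-dose mouse 5 and high-dose mouse 4. At the other end, low-dose mouse 3 was lowest of its group for 8 of the 18 genes. No share over all genes is given beside these counts, so they do not show whether the 33 genes stand out. The same pair of mice had the highest acute phase medians, as given above, and the part of that in the values of these genes was not tested.

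**Figure D5:**
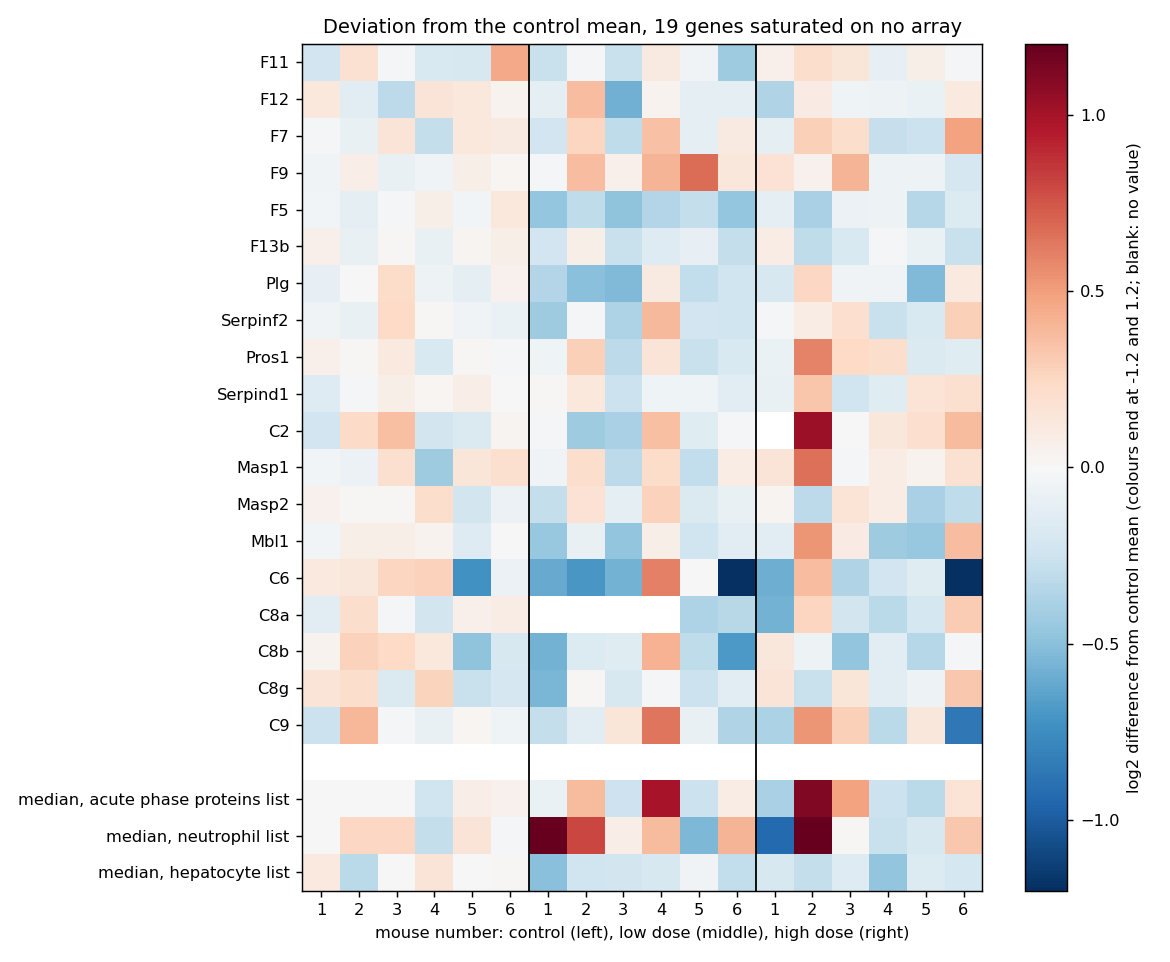
Difference from the control mean (log2) of the 19 genes saturated on no array in each of 18 mice, by role, with the medians of the acute phase, neutrophil and hepatocyte lists in the bottom rows; white cells have no value. F5 is blue in all 6 low-dose mice, and the columns of low-dose mouse 4 and high-dose mouse 2 are red for C6, C9, C2 and the acute phase median.

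The promoters of C6 and C9 are shown as those of the most variable pair, from RefSeq on GRCm38.p6, plus strand, at chr15:4726960-4727259 and chr15:6445096-6445395. Capitals mark matches to TTNNGNAAT (C/EBP) in both, and to CTGGGAA (STAT3-type) near the 3′ end in C6, all read on the opposite strand and without overlap.
C6: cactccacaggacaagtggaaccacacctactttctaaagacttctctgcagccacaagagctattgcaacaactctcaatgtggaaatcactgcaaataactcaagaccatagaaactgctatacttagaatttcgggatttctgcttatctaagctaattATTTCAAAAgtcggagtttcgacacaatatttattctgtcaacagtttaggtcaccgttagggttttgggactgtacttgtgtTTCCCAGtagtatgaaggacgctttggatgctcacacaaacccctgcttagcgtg
C9: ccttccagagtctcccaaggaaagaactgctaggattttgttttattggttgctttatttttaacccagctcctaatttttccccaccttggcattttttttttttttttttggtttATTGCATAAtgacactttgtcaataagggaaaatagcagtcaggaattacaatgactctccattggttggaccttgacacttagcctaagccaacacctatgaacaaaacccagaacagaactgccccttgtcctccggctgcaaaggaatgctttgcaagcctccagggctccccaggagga
Of the 25 genes with a promoter in the table, 7 held the C/EBP motif (C3, C6, C9, F13b, Fgb, Hc and Serpinc1) and 5 the STAT3-type element (C6, F9, Fgb, Fgg and Masp2), and the TATA box was in C3 and Hc. Of the 11 genes highest in both mice, 7 had a promoter in the table: Hc, C6 and C9 held the C/EBP motif, and C6 the STAT3-type element too, while F10, F11, Fga and Mbl1 held neither. Of all promoter windows 11.5% held the C/EBP motif and 11.1% the STAT3-type element. These shares count windows, whereas a gene was counted if any of its windows held the motif, so they are not a like comparison.

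Other genes of the same systems, in 7 lists, gave 0 calls in limma in any comparison. At an unadjusted p under 0.05, 6.57% of all genes were lower and 5.02% higher at the low dose, and 3.92% were lower at the high dose. Of 14 other coagulation genes, 10 were lower and 4 higher at the low dose (median -0.06, with 2 lower at an unadjusted p under 0.05), and 6 lower and 8 higher at the high dose (median 0.08). Klkb1 (plasma prekallikrein, a partner of factor XII) averaged 3.71 ± 0.24 in low-dose and 4.03 ± 0.13 in control livers (SD, n = 6 each). Its log2 fold change was -0.32 ± 0.11, with an adjusted p of 0.254. Of 25 other complement genes, 14 were lower and 11 higher at the low dose and 12 lower and 13 higher at the high dose, with medians of -0.04 and 0.03. At an unadjusted p under 0.05, 2 of them were lower at the low dose, and 2 lower and 1 higher at the high dose. Vtn (vitronectin, which blocks the terminal complex), one of those lower at the low dose, was saturated on 17 arrays.

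Of 11 measured genes of fibrinolysis and other protease inhibitors, 8 were lower (3 of them at an unadjusted p under 0.05) and 3 higher at the low dose and 4 lower and 7 higher at the high dose. Of the 3 lower at an unadjusted p under 0.05, Ambp (the alpha-1-microglobulin and bikunin precursor) and Serpina3k (a serine protease inhibitor of liver) were saturated on all 18 arrays and Itih2 (an inter-alpha-trypsin inhibitor heavy chain) on 0. Of 8 genes of the vitamin K cycle and of clotting factor secretion, 3 were lower and 5 higher at the low dose (1 of them at an unadjusted p under 0.05). Gas6, a vitamin K-dependent relative of protein S, averaged 4.72 ± 0.43 in low-dose and 3.77 ± 0.48 in control livers (SD, n = 6 each). The difference was 0.96 ± 0.32 with an adjusted p of 0.236. Lman1 (which carries factors V and VIII out of the endoplasmic reticulum) differed between high-dose and low-dose livers by -0.35 ± 0.12, with an adjusted p of 0.503, so no gene of these lists passed.

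Of 22 transcription factors of hepatocyte secretory genes, 17 were lower and 5 higher at the low dose with a median of -0.09, and 11 were lower and 11 higher at the high dose. None passed in limma. At an unadjusted p under 0.05, 4 were lower and 1 higher at the low dose, where 6.57% of all genes were lower and 5.02% higher. Creb3l3 (CREBH, a hepatocyte factor of acute phase and lipid genes) averaged 5.64 ± 0.12 in low-dose and 6.12 ± 0.08 in control livers (SD, n = 6 each), a difference of -0.48 ± 0.13 with an adjusted p of 0.153. Nr1h4 (FXR, the bile acid receptor) differed by -0.36 ± 0.10 at the low dose (adjusted p = 0.16) and by 0.45 ± 0.10 between high-dose and low-dose livers (adjusted p = 0.17). Of 14 genes of acute phase cytokine signalling, 8 were lower and 6 higher at the low dose, with a median of -0.06. Among them Il6ra (the interleukin-6 receptor alpha chain) differed by -0.53 ± 0.15, with an adjusted p of 0.158. Of the 24 acute phase genes, 7 were lower and 17 higher at the low dose (median 0.18), and 8 lower and 16 higher at the high dose (median 0.17). At an unadjusted p under 0.05, 5 of them were lower and 0 higher at each dose, and 12 of the 24 were saturated on at least 1 array. Those 5 include Hp (haptoglobin), Trf (transferrin) and Alb, each saturated on all 18 arrays. All 29 genes saturated on every array were lower at an unadjusted p under 0.05 at both doses. The 23 hepatocyte markers had 17 lower and 6 higher at each dose against control, with medians of -0.22 at the low and -0.19 at the high dose, and many of them were saturated. Among 9 lists of cell type markers, 2 genes passed at the low dose, where 0.243% of all genes did. Pkhd1 of the cholangiocyte list was higher by 0.69 (adjusted p = 0.0418 in limma). Of the 11 measured genes of that list 2 were lower and 9 higher. Hand2 of the stellate cell list fell by 0.91 (adjusted p = 0.0436 in limma). Of the 17 measured genes of that list 9 were lower and 8 higher.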

How the data were processed

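Liver RNA of 18 mice, 6 per group by the labels, was labelled with Cy3 and hybridised to 1-colour arrays. Per the file headers, the deposited intensity values are background-subtracted and spatially detrended by Agilent Feature Extraction, not normalised between arrays, and carry deposited flags for saturation, outliers and signal well above background. Per the submitters' processing notes, the software was Agilent Feature Extraction 9.5 with limma, and no steps are listed. A deposited table of log2 intensity, whose normalisation, scale and direction of centring are not given in the sources used here, served as an alternative. Log2 intensity minus the 75th percentile of each array was computed, outlier spots were dropped, repeated spots averaged, and probes kept when well above background on at least 6 arrays (25422 in all). The brightest probe stood for its gene. Groups were compared in 1 limma model (lmFit and eBayes, limma 3.58.1, R 4.3.3) over 17678 genes with Benjamini-Hochberg adjustment and a threshold of 0.05, and p-values are 2-sided. limma was tested on simulated data. Figures used matplotlib 3.10.9.

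The members and lists were chosen with earlier results of these data known. Genes were named if they were among the 33, with full values where an unadjusted p was under 0.05, where another probe was unsaturated or where the change was 1 of the 3 largest of a comparison. Of each other list at most 4 genes with the smallest p were named. Precision is limited by the number of arrays. Mouse numbers gave correlations between groups of -0.31 to 0.35 and do not pair the mice. Arrays lay on 5 slides, taken from shared scan times, all with low-dose and high-dose mice and 4 with control mice. Control arrays lay only at positions 1 and 4 of a slide and dosed arrays mostly at 2 and 3, so position and group cannot fully be told apart. Probe coordinates are on mm8, per the file headers, and promoters are from RefSeq on GRCm38.p6. Alternatives covered normalisation, background, filters, probe choice, saturation, slide and replicate blocks, single mice, and, added after seeing the data, outlier spots, array brightness and a pair of mice. The values of 1 gene of the other complement list are not reported here.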

Additional observations from a re-analysis of the deposited data

Results flagged for a closer look

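In 98 groups of mice tested with Dixon's criterion, 5 single values lay far from the others of their group, and chance alone flags about 1 in 20 groups. In control livers these were Serpinf2 in mouse 3 (7.54, above the others), Proc in mouse 2 (7.48, below), Hc in mouse 1 (6.13, below) and C6 in mouse 5 (3.73, below). In high-dose livers it was Masp1 in mouse 2 (4.71, above), the mouse with the highest acute phase and neutrophil medians.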

How the results depend on the processing

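At the low dose the count of genes past the threshold, 1 in the main analysis (F5), was 0 with quantile normalisation, scaling to the array median, normexp background correction, no filter on dim probes, the mean of the probes of a gene, slide as a fixed block, array brightness as a covariate, and the replicate block, which is not a pairing of mice here and under which the adjusted p of F5 was 0.108. Leaving out 1 mouse at a time gave 0 to 1 genes, and the call held only without high-dose mouse 2, 5 or 6. Under normexp the median of the genes at the low dose was 0.18 (0.21 for those never saturated) and between high and low dose -0.14 (-0.081), and Plg (0.077) and Proc (0.18) changed sign. The cause was not tested. At the high dose, and between the doses, the count was 0 in every alternative run. Under normexp the median of the never-saturated genes at the high dose against control was 0.13. Numbers of all genes called at the low dose ranged from 0 with array brightness as a covariate to 142 with array weights. Saturation limits the fibrinogen beta and gamma chains, C3, antithrombin and prothrombin, for which these arrays give no fold change.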
